A study of Drosophila melanogaster with 3 samples.

Results

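The nuclear genes for the oxidative phosphorylation machinery were described in a chromatin immunoprecipitation sequencing (ChIP-seq) map of the Drosophila melanogaster protein CG8089. They are the protein-coding genes whose symbol begins with ND-, COX, UQCR-, ATPsyn or Sdh in the Ensembl annotation. These symbols gave 88 of the 13945 protein-coding genes on the arms X, 2L, 2R, 3L, 3R and 4. Grouped by symbol, complex I holds 40 of them, complex II 8, complex III 9, complex IV 16 and complex V 15. In all, 64 were classed as established genes, meaning subunits and 1 assembly factor, and 24 as duplicates, meaning extra copies whose symbols mostly end in L.

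Oxidative phosphorylation takes place in the inner mitochondrial membrane. Complexes I to IV pass electrons from NADH and succinate to oxygen, complexes I, III and IV pump protons as they do so, and complex V, the ATP synthase, uses the proton gradient to make ATP. A few subunits are encoded in the mitochondrial genome and all others in the nucleus. In Drosophila, many duplicates of the nuclear subunit genes are known for expression in the testis, whereas the established copies are used in most tissues.

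The chromatin came from whole embryos of a transgenic line in which the C-terminus of CG8089 is fused to GFP, the green fluorescent protein, and an anti-GFP antibody was used for precipitation. Embryos of both sexes, aged 0 to 24 hours, were pooled, and the chromatin was sonicated to 200 to 800 bp. There was 1 group of 3 biological replicates from separate biosamples, numbered 2, 3 and 4, with no second condition to compare. Whole embryos mix many cell types, so occupancy in few cells cannot be told apart from weak occupancy in many, and control libraries were not examined.

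The list of each replicate and the list from pooled replicates had 30000 entries apiece, ranked by the authors' signal value for each peak, with 1 as the strongest. The authors' list of reproducible peaks, left by their irreproducible discovery rate step, held 3233 entries. All 3233 were the strongest pooled entries, so a reproducible peak is here a strong pooled peak. A gene was called bound when a reproducible summit, the position of highest signal in a peak, lay within 500 bp of one of its transcription start sites (TSSs). A rank in a replicate is that of its strongest summit in the same window, which need not be the pooled summit. Positions were counted from the gene's TSS closest to the summit. At the bound genes 46 of 48 replicate summits had a position within 200 bp of the pooled summit's position. At the genes with a weaker pooled summit 66 of 79 did. Where a gene has several TSSs, both positions need not be counted from the same start, so they may not give the distance between summits. Read depth is unknown.

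The sequence under strong summits is shown first, since these are the bases on which the summits described below lie. The first 5 lines are windows around the reproducible summits of bound genes, on the gene's strand of the Release 6 (dm6) genome from RefSeq. The last 2 lines are the start regions of COX4 and ATPsynD, both established genes without an entry in any list. Windows were cut where they would run further into exons. Capitals mark matches, on either strand, to the words TATCGATA, GGTCACAC, ACACTG and the ATATATGTA-like words of the search described further on.

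ND-ASHI: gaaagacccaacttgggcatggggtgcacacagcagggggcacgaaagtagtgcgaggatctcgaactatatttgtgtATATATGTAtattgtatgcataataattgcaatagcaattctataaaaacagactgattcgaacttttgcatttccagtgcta
ND-51: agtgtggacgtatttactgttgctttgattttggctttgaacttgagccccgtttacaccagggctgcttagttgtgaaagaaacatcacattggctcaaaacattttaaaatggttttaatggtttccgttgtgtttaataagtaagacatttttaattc
COX6B: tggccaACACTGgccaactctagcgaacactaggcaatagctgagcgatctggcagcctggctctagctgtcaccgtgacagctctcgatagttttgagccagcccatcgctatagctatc
UQCR-11: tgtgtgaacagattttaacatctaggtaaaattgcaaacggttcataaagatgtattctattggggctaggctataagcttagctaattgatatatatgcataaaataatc
COX5A: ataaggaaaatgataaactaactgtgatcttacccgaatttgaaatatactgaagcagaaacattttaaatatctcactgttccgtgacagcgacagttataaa
ATPsynD: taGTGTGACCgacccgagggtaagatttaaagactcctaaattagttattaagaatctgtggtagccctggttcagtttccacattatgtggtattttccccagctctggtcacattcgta
COX4: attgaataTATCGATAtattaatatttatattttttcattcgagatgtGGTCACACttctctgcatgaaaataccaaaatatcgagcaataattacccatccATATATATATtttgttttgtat

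The ND-ASHI window was chrX:6679317-6679477 on the minus strand, in an intron of the neighbouring gene Fum1. ND-51 was read at chr2L:6062832-6062992 on the minus strand, almost all of it between genes. COX6B was read at chrX:19744323-19744443 on the minus strand, between genes for the most part. UQCR-11 was read at chr3L:25120611-25120721 on the plus strand, and its summit was intergenic. COX5A was read at chr3R:11819457-11819560 on the plus strand, with its summit in an intron of COX5A. The start regions were chr3R:19094893-19095013 for ATPsynD and chr2L:19958603-19958726 for COX4, both on the plus strand. COX6B shows ACACTG and ND-ASHI an ATATATGTA-like word, while the ND-51, UQCR-11 and COX5A windows hold none of the words. The COX4 start, without a listed entry, holds TATCGATA and GGTCACAC together, and the ATPsynD start, also without a listed entry, holds GGTCACAC.

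Over all 88 genes, 16 were bound (18.2%), against 14.6% of all protein-coding genes, so the family as a whole stood close to the background. In single replicates, taking the strongest 3233 entries of each, 16, 13 and 18 of the 88 had a summit in replicates 2, 3 and 4, a mean of 17.8% ± 2.87 (SD, n = 3). The background in these lists was 14.9%, 13.7% and 14.0%, a mean of 14.2% ± 0.624 (SD, n = 3). Replicate 3 gave nearly the background share, and replicates 2 and 4 gave more. A list without a replicate kept the reproducible peaks held by both other replicates, and no peak was called anew. In these shorter lists, without replicate 2 or without replicate 4, 10 genes were bound (11.4%), against backgrounds of 9.08% and 8.83%. Both lists require replicate 3.

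The bound genes fell among the established genes alone. Of the 64 established genes 16 were bound (25.0%), and of the 24 duplicates 0, which allows a share of up to 12.5%. Among the strongest 3233 entries of replicates 2, 3 and 4 the established genes numbered 16, 13 and 17, or 24.0% ± 3.27 (SD, n = 3), and the duplicates 0, 0 and 1. The established share lay above the background share in each replicate. The SD gives the spread between replicates for the same genes and not between sets of genes. The members are few and were grouped with earlier results known, so no test is given for this division.

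**Figure D1:**
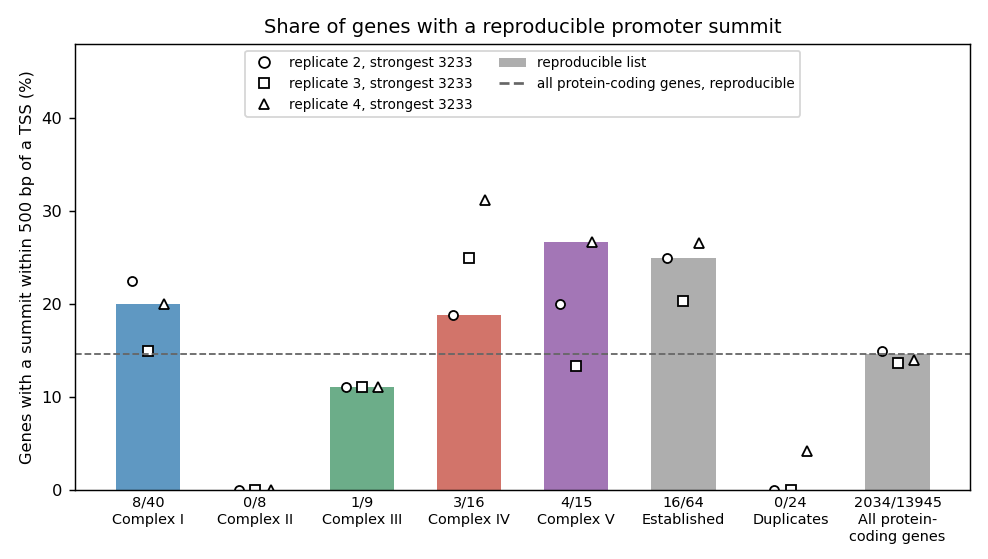
Bars give the percentage of genes with a reproducible summit within 500 bp of a TSS, by respiratory complex, for established and duplicate genes and for all protein-coding genes. Points give the same share among the strongest 3233 entries of each replicate, and the dashed line is the 14.6% of all protein-coding genes. Complex II and the duplicates have bars at 0.

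Complex I, the NADH dehydrogenase that feeds electrons into the chain, had 8 bound genes of 40 (20.0%). When a summit counted only for the nearest TSS, 4 of the 40 remained (10%), against 10.8% of all protein-coding genes, so much of the count rests on peaks nearer to another gene. Its nuclear core, the subunits that carry the flavin and iron-sulfur centres or bind quinone, had 2 bound of 7 (28.6%), namely ND-51 and ND-24. ND-51 encodes the subunit that binds NADH, and ND-24 the iron-sulfur subunit beside it. ND-51 had pooled rank 873 (signal 249), and ranked 1145 in replicate 2, 2495 in replicate 3 and 651 in replicate 4. ND-24 stood at pooled rank 1005 (signal 230), with 813, 1256 and 1467 in replicates 2, 3 and 4. Both genes were among the strongest 3233 entries in every replicate. The summit of ND-24 lay 65 bp downstream of its TSS, in the 5' UTR, and 107 bp upstream of corolla, which encodes a protein of the synaptonemal complex. The summit of ND-51 lay 155 bp upstream of its TSS and nearer to CG13994, at 77 bp.

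The other 5 core genes of complex I were weaker. ND-20 and ND-23, iron-sulfur subunits near the quinone site, had pooled ranks of 6842 and 7007. ND-30 and ND-49, also of the quinone module, stood at 11237 and 26369. ND-75, the large iron-sulfur subunit that works with ND-51 and ND-24 in NADH oxidation, had no pooled entry and appeared only at rank 15158 in replicate 3 and 26578 in replicate 4. The genes for the NADH-oxidizing end of the complex thus differed in whether a strong summit lay within 500 bp. The ND-51 and ND-24 peaks each had another gene start nearby, so occupancy of the genes themselves is not shown. When a summit counted only for the nearest TSS, ND-24 alone of the 7 core genes stayed bound (14.3%, against 10.8% of all protein-coding genes).

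Among the 27 accessory genes of complex I, whose products surround the core, 6 were bound (22.2%). ND-MWFE had the strongest summit of all 88 genes, with pooled rank 329 and signal 398. It ranked 131 in replicate 2, 820 in replicate 3 and 646 in replicate 4, with signals of 203, 98.3 and 89.1 on each replicate's own scale. The summit was 152 bp upstream of ND-MWFE, on chromosome 2R, but only 69 bp from TppII, which encodes a tripeptidyl peptidase, and in an intron of that gene. ND-ASHI came next at pooled rank 681 (signal 283), with 760, 470 and 1043 in replicates 2, 3 and 4. The ND-ASHI summit lay 279 bp upstream of its TSS and 243 bp upstream of a start of Fum1, which encodes the citric acid cycle enzyme fumarase. A single peak thus stood for genes of both pathways.

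ND-42, ND-SGDH and ND-B17 followed at pooled ranks 1561, 1779 and 1970. The replicates placed ND-42 at 1875, 1245 and 3088, ND-SGDH at 1484, 2037 and 2423, and ND-B17 at 2057, 4458 and 1790. ND-B17 was thus outside the strongest 3233 entries in replicate 3 only. The ND-42 summit was 322 bp upstream of its TSS, the furthest of all 16, and 73 bp from Cchl, which encodes the lyase that attaches heme to cytochrome c. ND-SGDH shared its peak with RhoGAP68F, at 112 and 172 bp upstream of the respective starts.

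ND-AGGG, the last of the 6, varied most. Its pooled rank was 2589 (signal 132), with 1147 in replicate 2, 23033 in replicate 3 and 2938 in replicate 4. The difference of 21886 places was the largest of all members with a summit in every replicate. ND-MLRQ, placed with complex I by its symbol, was the strongest gene of that group without a reproducible summit. It had pooled rank 4176 and ranks of 2098, 14810 and 6640, although the replicate 3 entry was another summit, 449 bp downstream of the TSS. The pooled summit lay 42 bp upstream of ND-MLRQ and 3 bp from another annotated start. ND-B22 was next at 4275, with 15660, 5023 and 4358 in replicates 2, 3 and 4, so its lowest place came from replicate 2.

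Complex II, succinate dehydrogenase, which links the citric acid cycle to the chain, had 0 bound genes of 8, which allows a share of up to 37.5%. The membrane anchor SdhC had its strongest pooled summit at rank 8195, 275 bp downstream of its TSS. The strongest summits of replicates 2, 3 and 4 in the window ranked 14995, 4992 and 12998, but that of replicate 3 lay 375 bp upstream and that of replicate 4 497 bp downstream, so they were not at the pooled summit. SdhB, the iron-sulfur subunit, stood at 10558, with 19354, 25794 and 17060. SdhD, the second anchor, had pooled rank 11071. The flavoprotein gene SdhA and the assembly factor gene Sdhaf3 had no pooled entry, although both had weak entries in replicates 3 and 4. No complex II gene was among the strongest 3233 entries of any replicate.

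Complex III, the cytochrome bc1 complex, had 1 bound gene of 9 (11.1%), UQCR-11, which encodes a small subunit. Its summit, 18 bp upstream of the TSS with no other gene within 500 bp, had pooled rank 1129 and signal 215. The replicates differed, at 427, 4821 and 2623 for replicates 2, 3 and 4, and with signals of 122, 40.2 and 42.0 on their own scales. It was not bound in the lists without replicate 2 or without replicate 4, which both require replicate 3. These lists left complex III with 0. UQCR-C2, a core protein of the complex, lay just outside the reproducible list at pooled rank 3435, 2 bp from its TSS. It showed the opposite order, with 17754 in replicate 2, 1795 in replicate 3 and 5594 in replicate 4. The second strongest gene outside the list, UQCR-14, stood at 12769, and UQCR-C1, the other core protein, at 25928.

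Complex IV, cytochrome c oxidase, which reduces oxygen, had 3 bound genes of 16 (18.8%). COX6B had pooled rank 952 (signal 237), with 935, 1231 and 1122 in replicates 2, 3 and 4. COX5A had pooled rank 1157 (signal 213), with 964, 2322 and 915. COX8 had pooled rank 2112 (signal 150), with 2410, 2294 and 2463. Each was among the strongest 3233 entries in all 3 replicates, and the COX8 ranks spanned fewer than 200 places. The COX6B peak had 4 gene starts within 500 bp, those of Rpp20 and CG33932 at 36 bp and those of COX6B and CG18809 at 60 bp. Rpp20 encodes a subunit of RNase P. COX5A shared its peak with glo, an RNA-binding protein gene, and COX8 with VhaM9.7-b, a gene for a vacuolar proton pump subunit 385 bp away.

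Outside the reproducible list, COX7B and COX7A stood at pooled ranks 3723 and 3919. COX7B held 3636, 4322 and 17369 in the replicates, and COX7A 11617, 2423 and 8166. COX7C had pooled rank 6830 but rank 2872 in replicate 4, where its summit was among the strongest 3233. The pooled summit lay 231 bp downstream of COX7C and nearer to oys, at 35 bp, and the replicate 4 summit lay 298 bp downstream of COX7C. COX4, which encodes a large subunit of the complex, had no entry within 500 bp in any list. Genes of 1 complex thus ranged from a strong entry in every replicate to none listed.

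Complex V, the ATP synthase, had 4 bound genes of 15 (26.7%). Without replicate 2 or without replicate 4 only ATPsynbeta remained, 1 of 15 (6.67%), against 9.08% and 8.83% of all protein-coding genes. Both of these lists require replicate 3, where ATPsynE and ATPsynF ranked 3435 and 3422. ATPsynbeta, the catalytic subunit, had pooled rank 1438 (signal 187) on chromosome 4. Its best ranks in replicates 2, 3 and 4 were 1865, 1414 and 1064. Its summit, at position 1031840 in the 5' UTR, was 24 bp upstream of an inner TSS. ATPsynbeta was the only member with a second reproducible summit in the window, at pooled rank 2870 and position 1030993. The second lay 491 bp upstream of the outermost TSS, so the 24 and 491 bp are counted from different starts. That second summit gave the replicate 2 rank of 1865, and the first stood at 2558 there. ATPsynC, which encodes the ring subunit that carries protons, was the weakest bound member, at pooled rank 3141 (signal 117). Inside its peak replicates 2, 3 and 4 ranked 6837, 3015 and 3533, so 2 of 3 placed it beyond 3233. Replicate 2 had a stronger entry, rank 5593, at 264 bp downstream of the TSS and outside the peak.

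ATPsynE and ATPsynF encode small membrane subunits. ATPsynE had pooled rank 1297 (signal 199), with 1132, 3435 and 1374 in replicates 2, 3 and 4. ATPsynF had pooled rank 2569 (signal 133), with 2634, 3422 and 2930, and its start and that of CG3548 were 64 and 62 bp from the summit. In both genes replicate 3 gave the lowest place. The strongest unbound genes were ATPsynO, of the stalk, at 6279 and ATPsyngamma, the rotating shaft, at 6948. ATPsyngamma ranked 2839 in replicate 4, had 8947 in replicate 3 and was missing from replicate 2. ATPsynD, of the peripheral stalk, had no entry in any list.

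**Figure D2:**
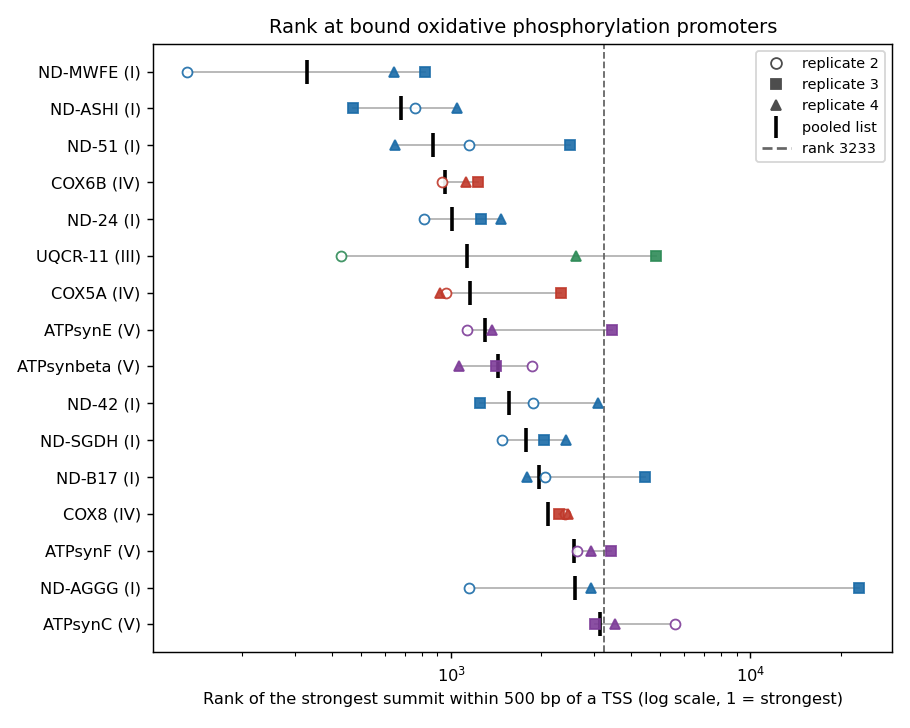
Ranks of the strongest summit within 500 bp of a TSS are shown for the 16 bound genes, with the complex in parentheses, on a log axis where 1 is the strongest. Markers are the 3 replicates, vertical ticks the pooled list, and the dashed line is rank 3233. COX8 has its markers together and ND-AGGG has them spread from 1147 to 23033.

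Across the 16 bound genes, 10 were among the strongest 3233 entries of all 3 replicates, or 11.4% of the 88, against 8.28% of all protein-coding genes. They were ND-MWFE, ND-ASHI, ND-51, ND-24, ND-42, ND-SGDH, COX6B, COX5A, COX8 and ATPsynbeta. Spearman's correlation of the ranks over these 16 genes was 0.344 between replicates 2 and 3, 0.615 between 2 and 4 and 0.459 between 3 and 4, given as a description. The 16 genes shared the same lists, and the pooled order was built from the same replicates. The median pooled rank was 1367.5 for the 16 bound genes and 1462 for all bound protein-coding genes, so their places within the reproducible list were ordinary.

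Another 6 genes reached the strongest 3233 entries of 1 replicate without being bound. They were ND-MLRQ in replicate 2, UQCR-C2 and COX7A in replicate 3, and COX7C, ATPsyngamma and COX4L in replicate 4. None of the 6 did so in more than 1 replicate. In total 66 of the 88 genes were in no replicate's strongest entries, and of all protein-coding genes 79.0% were in none.

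The weaker pooled entries were spread more widely. Any pooled summit, strong or weak, was found at 54 of the 88 genes (61.4%), against 51.7% of all protein-coding genes. By class it was found at 51 of the 64 established genes (79.7%) and at 3 of the 24 duplicates (12.5%). Of the genes with a pooled summit, 29.6% of members and 28.2% of all protein-coding genes were bound. Single replicates listed 35, 63 and 51 of the 88 genes (39.8%, 71.6% and 58.0%), against background shares of 41.3%, 54.3% and 48.6%. Replicate 2, which listed the fewest members, was also the one with the lowest background.

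**Figure D3:**
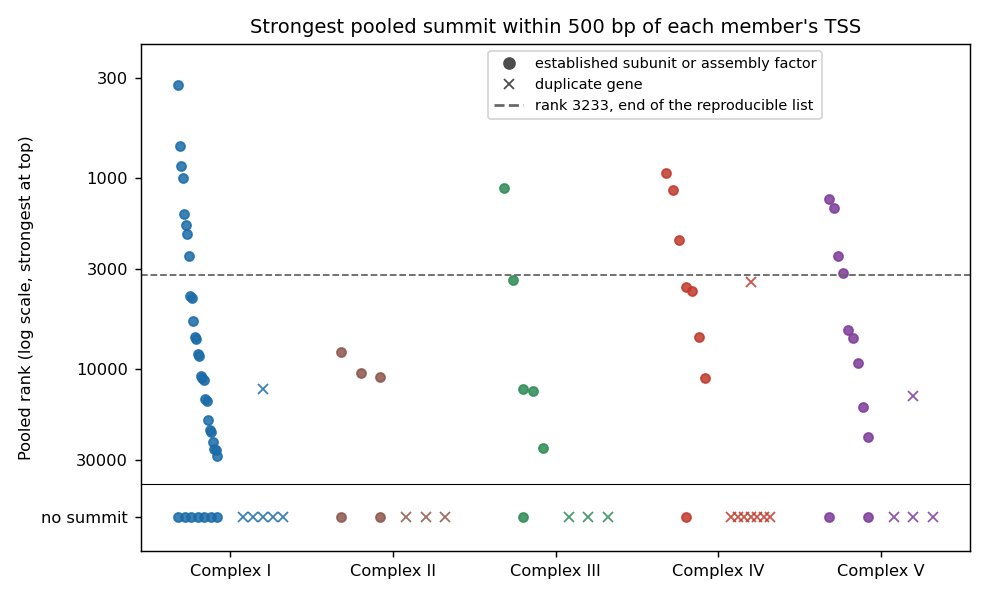
Each mark is 1 of the 88 genes at the rank of its strongest pooled summit within 500 bp of a TSS, on a log axis with the strongest at the top, by complex. Circles are established genes, crosses are duplicates, the dashed line is rank 3233, and genes without a pooled summit stand below the solid line. Only 3 of 24 crosses lie above that line.

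The duplicates can be set beside the genes they copy. The 24 duplicates have 21 parent genes, some of which are not among the 88 because their symbols differ. Of the 21 parents 5 were bound, namely ND-24, ND-51, UQCR-11, ATPsynbeta and levy, and 16 had a pooled summit. Of all protein-coding genes 14.6% were bound and 51.7% had a pooled summit. The copies ND-24L, ND-51L1, ND-51L2, UQCR-11L, COX6AL and COX6AL2 had no entry in any list. ATPsynbetaL, the copy of ATPsynbeta, had a pooled entry at rank 13835, and ND-B14.5AL had one at 12743, above its parent ND-B14.5A at 18585.

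COX4L was the exception among the duplicates. Its strongest pooled summit, 282 bp downstream of its TSS, had rank 3523 and signal 110, just outside the reproducible list, and its ranks were 5223, 4577 and 3010 in replicates 2, 3 and 4. COX4, the parent, had no entry. In all, 19 of the 88 genes had no entry in any list (21.6%), against 30.6% of all protein-coding genes. Of these, 16 were duplicates and 3 were the established genes ND-B15, COX4 and ATPsynD.

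The position of the summit differed between strong and weak entries. At the 16 bound genes the median position was 63 bp upstream of the gene's TSS closest to the summit, and 14 summits were upstream (87.5%). For COX5A, ATPsynE and ATPsynbeta this was an inner TSS, and their summits lay inside the gene, downstream of the outermost TSS. All bound protein-coding genes had a median of 107 bp upstream, with 83.6% upstream. At the 38 members with a weaker pooled summit, a kind seen at 37.1% of all protein-coding genes, the median position was 135.5 bp downstream, and 10 were upstream (26.3%). For all 5172 protein-coding genes of that kind it was 20 bp upstream, with 53.8% upstream. A summit more than 200 bp downstream of the TSS was found at 17 of these 38 members (44.7%) and at 20.7% of the 5172 genes.

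Complex V showed this most plainly, with all 6 of its weaker summits downstream of the TSS and 5 of them by more than 200 bp. ATPsyndelta, a subunit of the central stalk, had its summit 496 bp downstream, ATPsynB 381 bp and ATPsynG 296 bp. In complex I, 8 of the 20 weaker summits were upstream, among them ND-B17.2 at 63 bp and ND-20 at 105 bp. The ND-B17.2 summit lay nearer to Arpc5, at 57 bp. In complex III all 4 lay within 50 bp of the TSS on either side.

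**Figure D4:**
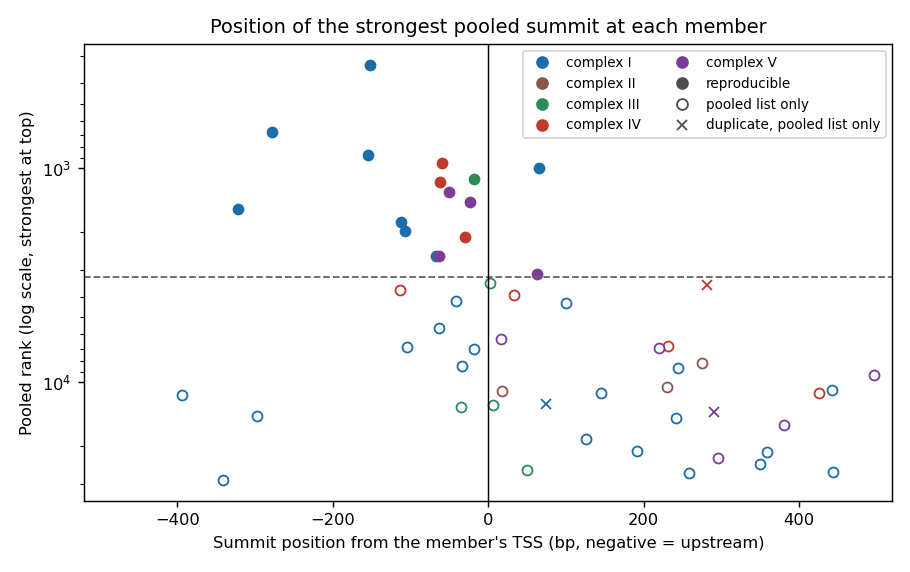
The strongest pooled summit of each of the 54 genes that had one is plotted by its position and its pooled rank on a log axis. Position is in bp from the gene's TSS closest to the summit (negative is upstream). Filled marks are the 16 bound genes and open marks or crosses are the 38 others, with colours for the complexes. Filled marks lie mostly left of the TSS and the lower marks mostly right of it.

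Many bound members shared their peak with another gene. At 12 of the 16 a further protein-coding gene had a TSS within 500 bp of the summit, against 53.9% of all bound protein-coding genes. The member's own TSS was the nearest at 10 of 16 (62.5%), against 72.4%. For ND-MWFE, ND-ASHI, ND-51, COX6B, ND-42 and ATPsynF another start was nearer, although for ATPsynF by 2 bp only. UQCR-11 and ND-AGGG were alone within the window, on the same stretch of arm 3L, near positions 25120691 and 24976187 of dm6. These summits cannot say which of 2 neighbouring starts the tagged protein sat on.

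Gene arrangement was counted over the whole family. A head-to-head neighbour, a protein-coding gene on the other strand starting within 500 bp upstream, was found for 33 of the 88 genes (37.5%) and for 25.0% of all protein-coding genes. Established genes had one in 30 of 64 cases (46.9%) and duplicates in 3 of 24 (12.5%). Of the members with such a neighbour 8 of 33 were bound (24.2%), and of those without 8 of 55. Among all protein-coding genes the shares were 27.0% with a neighbour and 10.5% without. Within the established genes the shares were nearly equal, 26.7% with a head-to-head neighbour and 23.5% without. Of the bound genes without one, ND-MWFE, ND-ASHI, COX5A and ATPsynbeta still shared their peak with another protein-coding gene. The division into established and duplicate genes thus moved together with gene arrangement, and the part of the arrangement in the result was not tested.

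By chromosome, bound genes numbered 3 of 13 on X, 2 of 16 on 2L, 2 of 17 on 2R, 4 of 20 on 3L, 4 of 20 on 3R and 1 of 2 on 4. Of all protein-coding genes, 12.9%, 14.6%, 13.7%, 15.6%, 15.1% and 35.0% were bound on these arms in the same order. With 1 to 4 bound members an arm, no arm can be said to differ from its background.

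Short words were searched on both strands from 250 bases before to 50 after the outermost TSS. ACACTG was taken from an earlier analysis of these data, so its shares at bound promoters and summits are not independent of them. GGTCACAC, the core of the promoter element motif 1, was in 4 of 16 bound members (25.0%), in 11 of 48 unbound established genes (22.9%), in 1 of 24 duplicates (4.17%) in 7.70% of all protein-coding promoters and in 10.6% of the 2034 bound ones. ACACTG was in 7 of 16 (43.8%), 20 of 48 (41.7%), 4 of 24 (16.7%), 18.9% and 28.7% in the same order. GGTCACAC followed by TG holds ACACTG, so the counts overlap. Bound and unbound established genes held both words at nearly the same share, above that of all promoters.

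TATCGATA, the DNA replication-related element (DRE) of many housekeeping promoters, was in 0 of 16 bound members, which allows a share of up to 18.8%. It was in 9 of 48 unbound established genes (18.8%), in 0 of 24 duplicates and in 9.36% of all promoters. All bound protein-coding promoters held it in 282 of 2034 cases (13.9%), more often than all promoters, and the limit for the 16 bound members includes that share. The 9 genes were COX4, COX7A, ND-15, ND-19, ND-23, ND-B14.5A, ND-B15, ND-MNLL and UQCR-14, of which COX4 and ND-B15 had no entry in any list. CACGTG was in 0, 2 and 2 promoters of these 3 groups and in 4.2% of all, and GCGCCNCCT, a core of the CTCF site, was in none of the 88 and in 0.674% of all. The words ATATATATA, ATATATGTA, GTATATATA and GTATATGTA were together in 0, 4 and 1 promoters and in 7.28% of all.

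Around the summits themselves a shorter window was searched, so its shares cannot be set directly beside those of the promoter window. Within 100 bp of the summit ACACTG was found at 3 of 16 bound members (18.8%), COX5A, COX6B and ND-51, and at 21.9% of 1597 reproducible peaks at protein-coding promoters. GGTCACAC was there at ND-B17 only (6.25%, against 4.63% of these 1597 peaks) and TATCGATA at ATPsynE only (6.25%, against 7.45%). The ATPsynE match was within reach of the summit but outside the window at the outermost TSS. An ATATATGTA-like word was there at ND-ASHI only (6.25%, against 3.38%). The median GC content of the promoter window was 36.0% for bound members, 33.3% for unbound established genes, 33.7% for duplicates and 38.0% for all protein-coding genes. A word match describes the sequence and does not show a binding site.

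Genes that work beside the family but carry other symbols were counted in the same way. Of 10 matched genes for further electron transport and ATP synthase proteins 4 were bound (40.0%), blw, Cyt-c-d, Cyt-c-p and levy. The ATP synthase alpha subunit gene blw had pooled rank 435, with 328, 959 and 329 in replicates 2, 3 and 4, ahead of every complex V gene above. The cytochrome c gene Cyt-c-d, known for its role in the testis, had rank 413, with 349, 395 and 545, although its summit was 363 bp downstream of the TSS. The other cytochrome c gene, Cyt-c-p, had rank 2375, with 2505, 2100 and 11728. RFeSP and Cyt-c1, electron carriers of complex III, had no pooled entry.

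Of 18 matched genes of the citric acid cycle and pyruvate dehydrogenase 4 were bound (22.2%), mAcon1, Idh3g, Pdp and Fum1, the last through the peak shared with ND-ASHI. mAcon1, an aconitase gene, had pooled rank 857, with 688, 1528 and 658. Mitochondrial carriers and pores had 0 bound of 5, and genes for mitochondrial DNA maintenance and expression 3 of 11, among them mtSSB, the single-strand binding protein, at rank 488. In the assembly and import list 3 of 10 were bound. CIA30, an assembly factor of complex I, had rank 150, with 122, 215 and 150 in replicates 2, 3 and 4, and so ranked above every member of the 88. These lists are short, and each count stands beside the background of 14.6%.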

How the data were processed

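The deposited dm6 peak lists were used, 1 per replicate, 1 pooled and 1 reproducible. The authors called peaks per replicate and on pooled replicates, and the reproducible list came from their irreproducible discovery rate step, per the deposited file descriptions. The labels and file descriptions used here name neither the peak caller nor its settings. The lists give a signal value per peak, made by the authors on a scale that is not given, and it was used only to rank peaks within a list. Summits came from the summit offset column of the same deposited lists. The dm3 lists were not used.

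Starts of all transcripts came from Ensembl release 115, and sequences from the Release 6 genome of RefSeq, in which all 30000 pooled entries ended within their arms. The strongest summit within 500 bp stood for a gene, and a summit could count for several genes. Members, lists, classes and words were chosen with earlier results of these data known, so no list was tested. COX6AL and COX6AL2 were classed as duplicates of levy after their symbols were seen. Named genes were every bound member, the 2 strongest unbound members of each complex, the most variable member, genes at shared peaks and the lists of related genes; others were named after their values were seen. Sequences were read for the 8 strongest bound members outside arm 2R, and 5 windows of at least 100 bases were kept. Of the related names, mtacp1 and Nc73EF had no match. Limits for counts of 0 are 3 genes of the total and cover counting error only. Gene assignment was tested on simulated data. The scripts ran in Python 3.11.15 with pandas 2.3.3, numpy 2.4.6, matplotlib 3.10.9 and scipy 1.17.1. Alternatives were other windows, start definitions, list lengths, and lists without each replicate.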

Additional observations from a re-analysis of the deposited data

How the results depend on the processing

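The count of 16 bound genes was 14 with a 250 bp window (background 11.9%) and 18 with 1000 bp. With 1000 bp the background share also rose, above the 14.6% of the main setting, and stayed below the share of members. The count was 16 with the outermost TSS only (background 12.8%) and 17 when any part of a peak could reach the window (background 15.7%). It was 10 (11.4%, background 10.8%) when a summit counted for the nearest TSS only, which by construction gives up ATPsynF, COX6B, ND-42, ND-51, ND-ASHI and ND-MWFE. It was 10 in the stronger 1616 entries (background 8.05%). Lists without 1 replicate, meaning the reproducible peaks held by both others, gave 10 to 15 bound genes. Leaving out replicate 2 or replicate 4 each gave 10, without ATPsynC, ATPsynE, ATPsynF, ND-AGGG, ND-B17 and UQCR-11, and leaving out replicate 3 gave 15, without ATPsynC. Those lists are shorter by construction, with 2054, 2119 and 1892 peaks and backgrounds of 9.08%, 10.4% and 8.83%. Replicate 3 is required in the lists without replicate 2 and without replicate 4. It ranked all the genes lost there except ATPsynC beyond 3233. Without replicate 2 or 4 complex V had 1 bound gene (6.67%) and complex III 0. With the nearest TSS only complex I had 4 (10%, background 10.8%). Complex II had 1 bound gene, SdhA, with a 1000 bp window. The duplicates had 1, COX7AL2, with that window and with peak overlap, and 0 otherwise. With lists of 1616 entries the members in replicates 2, 3 and 4 were 10 (11.4%, background 8.88%), 6 (6.82%, background 7.1%) and 8 (9.09%, background 7.78%), so replicate 3 fell below its background. With 6466 entries they were 21, 25 and 26 (23.9%, 28.4% and 29.5%), against 20.9%, 25.1% and 22.6%. Read depth was not available, so what it limits is unknown. No paired analysis was possible because there was 1 group and no contrast.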
